A study of Mus musculus with 3 samples.

Results

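The 10 genes described here are transcripts induced by ERK (extracellular signal-regulated kinase) signalling that restrain or relay it. They were Dusp4, Dusp6, Spry1, Spry2, Spry4, Spred1, Spred2, Etv4, Etv5 and Phlda1. The list was chosen by name with earlier results of these arrays in view, in which Dusp6 and Phlda1 already stood among the lowest ratios to 0 h, and which values decided each other name is not recorded. All ratios are therefore given as a description with no test. All 28 probe sets annotated to 1 of these genes alone were read, of 45101 on the array. Of the 10 genes, 8 passed the expression filter (a mean log2 signal over the 3 arrays of at least that of a signal of 200), among 9723 genes in all. Etv4 and Spry4 did not pass.

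The series followed B16 cells, a mouse melanoma line grown in serum-containing medium, at 0 h, 2 h and 4 h after 1 µg/ml of doxorubicin, a DNA-intercalating anthracycline and topoisomerase II poison, was added. Each time point was 1 Affymetrix array, so no spread between cultures was measured, no test could be made, and how precise a ratio is stays bounded by having so few arrays. The cultures at 2 h and 4 h had no untreated culture of the same age, so effects of the drug and of culture time or handling cannot be told apart. In RNA from whole cultures, fewer expressing cells and less RNA per cell cannot be told apart either.

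In the ERK pathway, growth factor receptors activate Ras, which starts a kinase relay through RAF and MEK to ERK. Active ERK enters the nucleus and switches on, through ETS and other transcription factors, a set of genes that includes its own inhibitors, so the abundance of these transcripts is widely read as a gauge of pathway output. The pathway is commonly overactive in melanoma. Among the genes here, Dusp6 and Dusp4 encode phosphatases that remove the activating phosphates from ERK and related kinases, the Sprouty (Spry) and Spred proteins act upstream on Ras and RAF activation, Etv4 and Etv5 are ETS transcription factors of the PEA3 group that relay the signal, and Phlda1 encodes a protein with a pleckstrin homology-like domain.

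The promoters of 3 genes are shown, 1 each from the phosphatase, Sprouty and Spred families, because these families fell and their genes are commonly read together. Each sequence is the 250 bases before the annotated start in RefSeq (GRCm38.p6), read 5′ to 3′ on the gene's strand. Dusp6 lies on the plus strand at chr10:99262981-99263230, Spry2 on the minus strand at chr14:105896820-105897069, and Spred2 on the plus strand at chr11:19924192-19924441. Capitals mark the core letters of ETS factor sites, GGAA on either strand, and in Spred2 also TGACGTC on either strand, which directly follows a GGAA match and shares no letter with it.
Dusp6: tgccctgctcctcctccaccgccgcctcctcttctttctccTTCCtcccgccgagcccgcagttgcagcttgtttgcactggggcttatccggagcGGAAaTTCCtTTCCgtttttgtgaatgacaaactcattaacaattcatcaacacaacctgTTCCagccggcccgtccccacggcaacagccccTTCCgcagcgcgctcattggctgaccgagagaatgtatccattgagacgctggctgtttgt
Spry2: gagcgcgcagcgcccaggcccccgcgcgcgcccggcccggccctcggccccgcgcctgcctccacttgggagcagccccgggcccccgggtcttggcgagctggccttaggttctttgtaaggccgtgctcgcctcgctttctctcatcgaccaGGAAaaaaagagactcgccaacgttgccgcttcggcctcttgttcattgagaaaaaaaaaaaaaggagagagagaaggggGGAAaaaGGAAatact
Spred2: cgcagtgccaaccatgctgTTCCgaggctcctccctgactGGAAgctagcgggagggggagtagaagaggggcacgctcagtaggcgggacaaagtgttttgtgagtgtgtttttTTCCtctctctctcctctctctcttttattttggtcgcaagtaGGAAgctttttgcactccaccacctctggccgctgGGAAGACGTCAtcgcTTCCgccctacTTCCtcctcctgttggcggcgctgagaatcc

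The promoter table held 6 of the 10 genes, Dusp6, Spry1, Spry2, Spred1, Spred2 and Etv5, with 7 windows in all because Etv5 has 2 annotated starts. The GGAA core was present in 6 of the 7 windows, and in 93.4% of the 32851 promoter windows of the same length. Dusp6 had 6 matches and Spred2 had 7, against 3 in Spry2 and a median of 3 over all windows. Spred1 had 4, Spry1 had 1, and the 2 Etv5 windows had 0 and 4. At least 6 matches were found in 8.69% of all windows and at least 7 in 3.82%. The longer ETS letters CCGGAA, on either strand, were in none of the 7 windows and in 12.0% of all windows. The full cAMP response element TGACGTCA was in none of the 7 and in 1.55% of all windows. The AP-1 site TGANTCA was in none of the 7 and in 6.75%, and the CArG box, the site of serum response factor, was in none of the 7 and in 1.47%. Spred2 had 1 match to TGACGTC at position -53 from the start, on the reverse strand, a shortened letter run that was searched after the sequence had been seen and that 2.78% of all windows hold. The windows of these genes had a GC content of 56.0% to 71.2%, against a median of 52.4% over all windows. These letter matches describe the windows and carry no measurement of binding.

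The arrays were checked against the labels before the genes were read, because a description field named bone marrow-derived macrophages and a treatment "ET", an abbreviation left unexplained in the labels. The 9 pigment cell markers had a summed signal of 170556, 177580 and 184074 at 0, 2 and 4 h, most of it from Tyrp1, Dct, Pmel and Mlana. Tyr was dim, at 221, 170 and 142, and the transcription factor genes Mitf (6576, 2031 and 739) and Sox10 (11710, 2640 and 892) were more than 2-fold lower at both later times. The 9 macrophage markers summed to 3770, 4802 and 5210 (5, 4 and 4 of them at 200 or more), and the 6 fibroblast markers to 3565, 3809 and 3857 (3, 4 and 3). The 4 lymphocyte and 5 endothelial markers summed to 646 to 895 and to 742 to 777, with 1 gene of each at 200 or more on each array. The leukocyte marker Ptprc had signals of 52.2, 9.65 and 8.75. By the clock times of day in the file headers, hybridization of the 4 h array was timed 94 minutes after that of the 0 h array. That of the 2 h array was timed 1 minute after it. Only the time of day was compared, not the date. On the 4 h array the hybridization time cannot be told apart from the time in doxorubicin. The headers also give each array its own module of station 1, namely 3, 4 and 1 at 0, 2 and 4 h. Module and time in doxorubicin therefore cannot be told apart on any array.

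Doxorubicin treatment for 2 h was accompanied by lower signals of 8 of the 8 passing feedback genes, and 5 of the 8, namely Dusp6, Phlda1, Dusp4, Spry2 and Spry1, fell at least 2-fold. Over all 9723 genes, the share at least 2-fold lower at 2 h was 5.69% and the share 2-fold higher or more was 1.41%, and no feedback gene was 2-fold higher. A 4-fold fall by 2 h was seen in 4 of the 8 (Dusp6, Phlda1, Dusp4 and Spry2), against 0.72% of all genes. The median log2 ratio of the 8 genes was -1.70, and that of all genes was -0.01. At 4 h, 7 of the 8 were at least 2-fold lower than at 0 h and none was 2-fold higher, against 14.4% lower and 2.32% higher over all genes. The median log2 ratio was then -2.38, against -0.07 over all genes, and 5 of the 8 (Dusp6, Phlda1, Dusp4, Spred1 and Spred2) were at least 4-fold lower, against 3.1% of all genes. The comparisons with 0 h share the 0 h array and are not independent of each other. As the genes were chosen with their values known, the shares over all genes stand here as background only. The filter is a mean that includes the 0 h array, so the high 0 h signal of Dusp6 counted towards its entry.

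**Figure D1:**
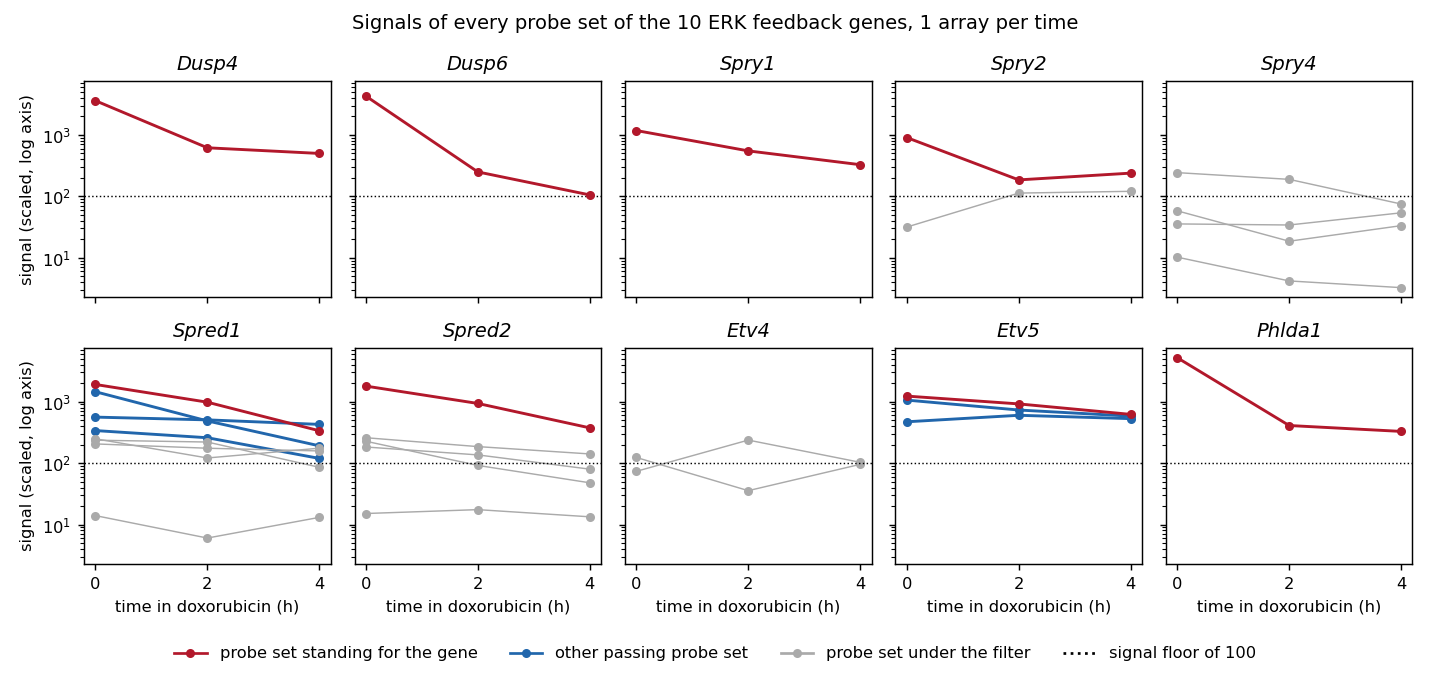
Scaled probe set signals (log axis) against time in doxorubicin for all 28 probe sets of the 10 genes, with 1 array per time point. Red lines stand for the probe set used for the gene, blue lines for other passing probe sets and grey lines for probe sets under the filter. The dotted line is the signal floor of 100. Dusp6 comes down to 105 at 4 h, next to the floor, while Etv4 and Spry4 have only grey lines.

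The phosphatase genes were among the lowest ratios. Dusp6, which encodes a phosphatase selective for ERK, gave signals of 4301, 249.8 and 105 at 0, 2 and 4 h on its 1 probe set. The signal was lower on each later array, and its log2 ratios of -4.11 at 2 h and -5.35 at 4 h each ranked 2 from the lowest among the 9723 genes. From 2 h to 4 h it fell a further 2.37-fold, and the 4 h signal lay so close to the floor of 100 that a deeper fall could hardly have been seen. Dusp4, a nuclear phosphatase of ERK and JNK kinases, had signals of 3616, 617 and 499. It was 5.86-fold lower at 2 h and 7.24-fold lower at 4 h than at 0 h, ranking 18 and 77 from the lowest. Between the 2 h and 4 h arrays its log2 ratio was only -0.31, so nearly all of the difference was present by 2 h.

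The Sprouty genes that passed, Spry2 and Spry1, differed in timing. Spry2, an inhibitor of Ras-ERK signalling downstream of receptor tyrosine kinases, had signals of 907, 185 and 239 at 0, 2 and 4 h. It was 4.90-fold lower at 2 h and 3.80-fold lower at 4 h, and it was the 1 feedback gene whose signal was higher at 4 h than at 2 h, with a log2 ratio of 0.37. That step is under the 2-fold size and of about the same size as the SD between probe sets of 1 gene for this comparison, 0.38. Spry1, a close relative, had signals of 1179.9, 549 and 327, and was lower on each later array. It was 2.15-fold lower at 2 h and 3.61-fold lower at 4 h. Spry4 had 4 probe sets, none of which passed. The brightest gave 243, 189 and 74.9, at least 2.43-fold lower at 4 h on that probe set alone, with the floor of 100 as the bound. The other probe sets stayed between 3.26 and 58.2 on all arrays, under the floor, so no fold is given for the gene.

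The Spred genes encode membrane-associated proteins related to Sprouty that bring neurofibromin to Ras, and on their brightest probe sets both passed 2-fold at 4 h but not at 2 h. Spred1 had signals of 1907, 981 and 335 on its brightest probe set. It was 1.94-fold lower at 2 h and 5.69-fold lower at 4 h. Spred2 had signals of 1794, 935 and 374, close to the course of Spred1, and was 1.92-fold lower at 2 h and 4.80-fold lower at 4 h. The 2 h differences were just short of 2-fold, but for Spred1 that call depended on the probe set.

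Spred1 was measured by 4 passing probe sets that did not give the same size. The probe set next in brightness, whose name has no suffix for shared probes, had signals of 1453, 486 and 191, and was 2.99-fold lower at 2 h, past 2-fold. The log2 ratio at 2 h was -0.96 and -1.58 in the 2 brightest and -0.39 and -0.15 in the others. At 4 h it was -2.51 and -2.93 in the 2 brightest, -1.51 in another and -0.39 in the fourth, whose _x_at name marks possible cross-hybridization, with signals of 560.5, 505 and 427. The SD over the 4 probe sets was 0.64 at 2 h and 1.13 at 4 h. All 4 were below 0 at both times. For Spred2, 1 of 5 probe sets passed.

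Of the ETS factors of the PEA3 group, Etv5 was the feedback gene with the smallest difference. Its brightest probe set had signals of 1233, 919.5 and 621, a log2 ratio of -0.42 at 2 h and -0.99 at 4 h, just short of 2-fold. Another probe set had 1061, 731 and 582, with ratios of -0.54 and -0.87. The remaining one, with an _s_at name for probes shared between transcripts, went the other way, with 470.2, 600.1 and 529 and ratios of 0.35 and 0.17. The SD over the 3 was 0.48 and 0.64. Etv4 was dim throughout, with 124, 35.6 and 95.5 on one probe set and 73.3, 237 and 103 on the other, and no fold is given for it.

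Phlda1, which is induced by several growth signals and was described first in T cells and then as a regulator of cell death and growth, had signals of 5213, 409 and 328 on 1 probe set. It was 12.7-fold lower at 2 h and 15.9-fold lower at 4 h, ranking 5 and 15 from the lowest of all genes. Like Dusp4, it changed little between 2 h and 4 h, with a log2 ratio of -0.32.

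**Figure D2:**
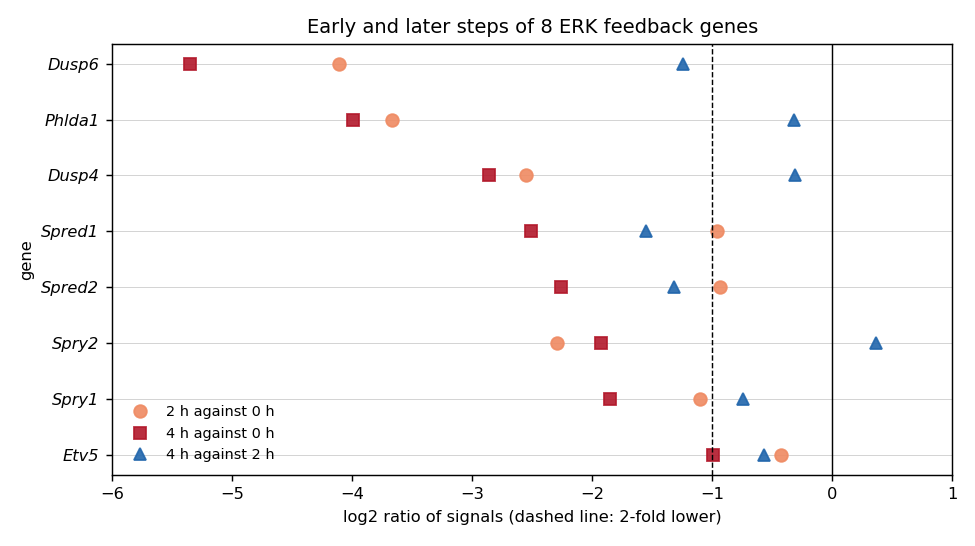
Log2 ratios of signals for the 8 passing genes at 2 h against 0 h (circles), 4 h against 0 h (squares) and 4 h against 2 h (triangles), ordered by the 4 h value, with a dashed line at 2-fold lower. Triangles for Spred1, Spred2 and Dusp6 lie left of the dashed line, and that of Spry2 lies right of 0.

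The later step, 4 h against 2 h, set the genes in another order. Spred1, Spred2 and Dusp6 fell at least 2-fold between these arrays, with log2 ratios of -1.55, -1.32 and -1.25, which makes 3 of 8 against 5.41% of all genes. The call for Dusp6 rested on the floor, since its log2 ratio was -0.32 with a floor of 200 and -0.95 with an offset of 50, and either leaves 2 of 8. None of the 8 was 2-fold higher, as 0.843% of all genes were. Spry1 and Etv5 stood at -0.75 and -0.57, Phlda1 and Dusp4 at -0.32 and -0.31, and Spry2 at 0.37. Expressed per hour, Dusp6 changed by -2.05 log2 units from 0 h to 2 h and by -0.62 from 2 h to 4 h (-0.16 with a floor of 200), and Phlda1 by -1.84 and -0.16. Spred2 ran the other way, with -0.47 per hour in the first interval and -0.66 in the second. So did Spred1 on its brightest probe set, with -0.48 and -0.77. The order turned on the brighter of its passing probe sets without a suffix, with -0.79 and -0.67. It did not turn on the dimmer of them, with log2 ratios of -0.39 at 2 h and -1.12 for 4 h against 2 h. By 2 h, Phlda1 had reached 92.0% and Dusp4 89.3% of the log2 difference seen at 4 h. Dusp6 had reached 76.7% (92.8% with a floor of 200), Spry1 59.6%, Etv5 42.7%, Spred2 41.5% and Spred1 38.3%. For Spred1 the share was 54.0% on the brighter probe set without a suffix. Spry2 was at 119% because its 2 h signal was its lowest.

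No spread between cultures exists, so the order of the genes was read against the SD of log2 ratios among probe sets that share a gene, which was 0.40 at 2 h, 0.48 at 4 h and 0.38 for the later step over 3905 genes. This SD leaves out variation between cultures and arrays. A difference between 2 genes then has an SD of 0.57 at 2 h. At 2 h, 2 of the 7 gaps between neighbours were larger than that. Dusp6 and Phlda1 stood lowest, 0.43 apart, and Phlda1 was 1.12 below Dusp4. Dusp4 and Spry2 came next, 0.26 apart, and Spry2 was 1.19 below Spry1. Spry1, Spred1, Spred2 and Etv5 followed with gaps of 0.14, 0.02 and 0.52, each under that SD, although Etv5 was 0.68 above Spry1, which is over it. At 4 h, where the SD of a difference was 0.68, Dusp6 was 1.36 below Phlda1, but 0.44 below it with a floor of 200, under that SD. Phlda1 was 1.13 below Dusp4. The next 5 genes, Dusp4, Spred1, Spred2, Spry2 and Spry1, had gaps of 0.08 to 0.35 between neighbours and 1.01 from end to end, and Etv5 stood 0.86 above Spry1.

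**Figure D3:**
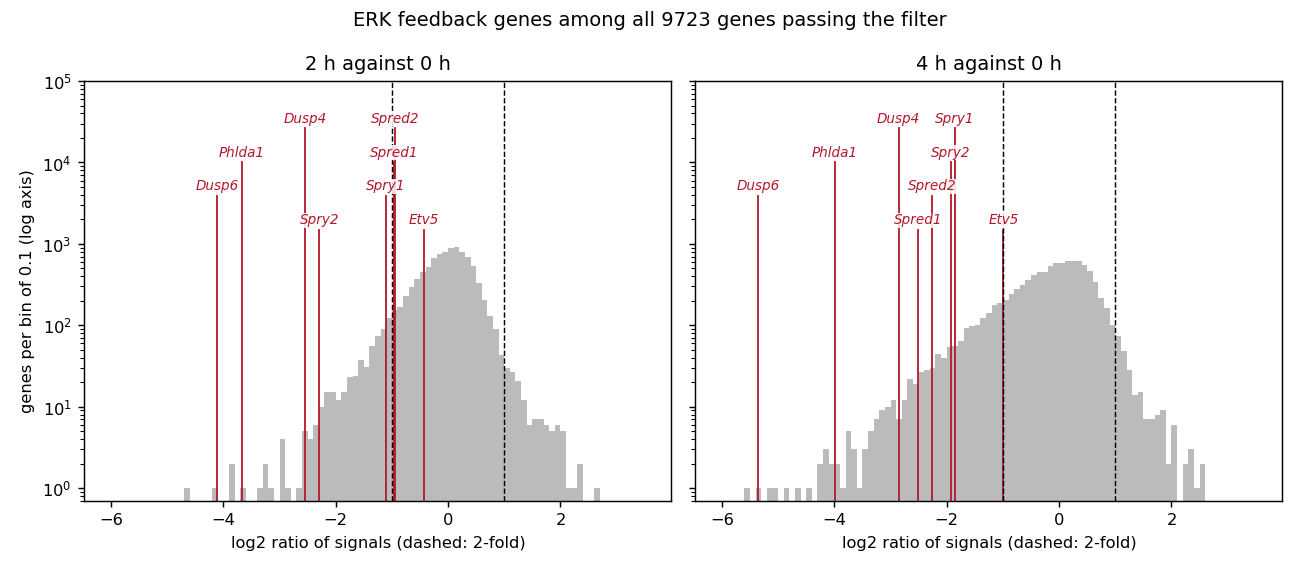
Number of genes (log axis) in bins of 0.1 log2 units for 2 h against 0 h (left) and 4 h against 0 h (right), over all 9723 passing genes, with the 8 feedback genes as red lines and 2-fold differences dashed. Dusp6 and Phlda1 lie in the far lower tail at both times, and Etv5 lies at -0.42 and -0.99.

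The background shares depended on the scaling. Genes at least 2-fold lower made up 80.1% of all genes past 2-fold at 2 h in the scaling used here, against 61.6% with equal medians, 63.2% with quantile normalization and 92.8% with scaling to 18 hybridization spike-in probe sets. At 4 h the shares were 86.1%, 54.6%, 69.7% and 97.1%, and for 4 h against 2 h 86.5%, 67.2%, 72.8% and 92.6%. With equal medians the log2 ratio over all genes had a median of 0.14 at 2 h and 0.24 at 4 h, and with spike-in scaling of -0.23 and -0.39. All 8 feedback genes stayed below 0 at 2 h and at 4 h in each of these scalings, with a median of -1.54 to -1.91 at 2 h and of -2.08 to -2.71 at 4 h. Spry1 was -0.95 at 2 h with equal medians, which left 4 of 8 genes past 2-fold, and spike-in scaling took Spred1 and Spred2 past it as well, for 7 of 8.

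Genomic span differed widely among the genes. By the RefSeq annotation of GRCm38.p6, Phlda1 spans 2364 bp, Dusp6 4259, Spry1 4653, Spry2 4873 and Dusp4 12285, while Etv5 spans 58258, Spred1 61209 and Spred2 99585. On the brightest probe sets the 3 long genes had the 3 smallest differences at 2 h, between -0.42 and -0.96, and the 5 short genes lay between -1.10 and -4.11. With the brighter Spred1 probe set without a suffix, at -1.58, Spred1 lay lower than Spry1, but the dimmer probe set without a suffix stood at -0.39. Across the 8 genes Spearman's rho between span and the log2 ratio was 0.81 at 2 h and 0.43 at 4 h. It was -0.43 for 4 h against 2 h. With the brighter probe set without a suffix, rho was 0.71, 0.38 and -0.43. These are descriptions over 8 chosen genes that share the same arrays. Over 9710 genes with a known span, rho was -0.15 at 2 h and -0.09 at 4 h, of the opposite sign. The share of genes at least 2-fold lower at 2 h was 6.51% under 10 kb, 4.63% from 10 to 30 kb, 6.16% from 30 to 100 kb and 5.88% over 100 kb. At 4 h the shares of the same classes were 13.8%, 13.7%, 14.7% and 16.6%.

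**Figure D4:**
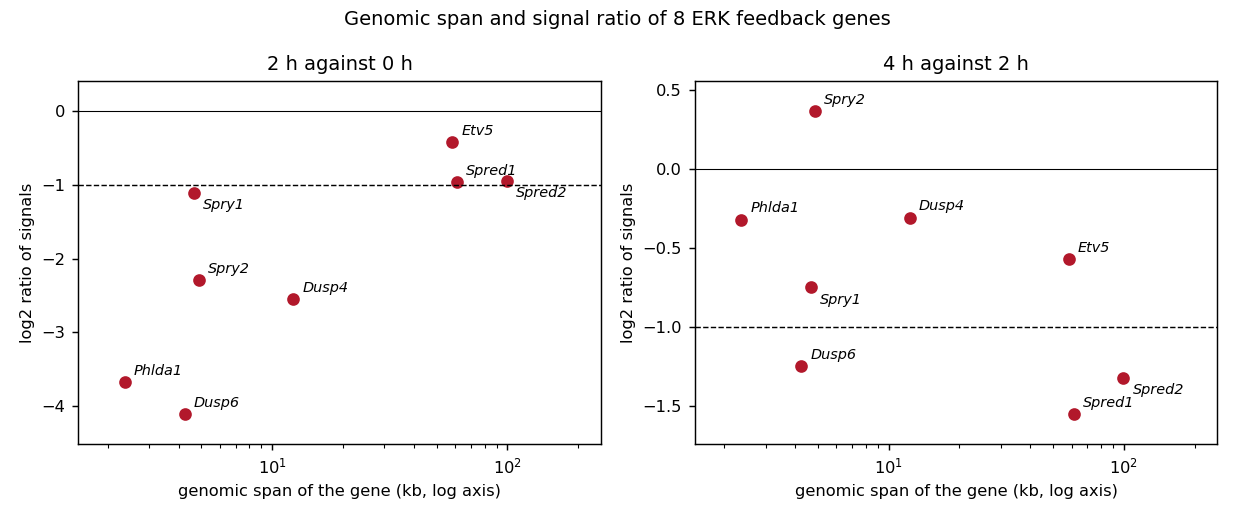
Log2 ratio of signals against genomic span (kb, log axis) for the 8 passing genes, each on its brightest probe set, at 2 h against 0 h (left) and 4 h against 2 h (right), with a dashed line at 2-fold lower. Etv5, Spred1 and Spred2, at 58 kb and more, lie highest on the left, and Spred1 and Spred2 lie lowest on the right.

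Other genes of the pathway, from lists drawn up with earlier results of these arrays known, are given next. Of 13 relatives of these families, 12 had a named probe set and 5 passed; of these, 2 of 5 had fallen 2-fold or more by 2 h (5.69% of all genes) and 4 of 5 by 4 h (14.4%), with medians of -0.49 and -1.38. Dusp7, a cytoplasmic ERK phosphatase related to Dusp6, had signals of 1035, 461 and 91.4 and stood at -1.17 ± 0.28 and -3.37 ± 0.86 on the log2 scale (SD, 3 probe sets), where the 4 h ratio is a bound because that signal was under the floor. Here and below, the value before ± is the ratio of the brightest probe set, not a mean. The SD is that among all passing probe sets of the gene. Dusp16, a JNK and p38 phosphatase, was at -1.59 and -1.37. Dusp2, a nuclear ERK phosphatase, stood at 0.08 at 2 h and -1.39 at 4 h, Phlda3, a relative of Phlda1 induced by p53, at -0.49 and -1.38, and Dusp10, a JNK and p38 phosphatase, at -0.01 and -0.86. The 2 h sign of Dusp2 and Dusp10 depended on the scaling, with 0.24 and 0.14 under equal medians and -0.13 and -0.23 under spike-in scaling.

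The cascade itself was mostly within 2-fold. Of 21 listed genes from Ras to ERK, 15 had a named probe set and 14 passed, of which 2 had fallen 2-fold or more by 2 h and 3 by 4 h, with medians of -0.24 and -0.31. Over all genes the shares were 5.69% and 14.4%, so that 3 of 14 at 4 h is near the background. Those 3 were Ksr1, a scaffold of RAF and MEK, whose signals of 512, 268 and 104 gave -2.30 on the log2 scale at 4 h, the docking protein Gab1 at -1.79 ± 0.83 (SD, 3 probe sets), and Sos2, a Ras exchange factor, at -1.51. Nras, a Ras gene often mutated in melanoma, had the highest value, with signals of 1277, 1840.1 and 2320 and a ratio of 0.86 ± 0.38 (SD over 3 probe sets). The kinase gene Map2k2 and the adaptor gene Grb2 followed at 0.53 ± 0.76 and 0.39 ± 0.42 (SD over 2 probe sets each), all under 2-fold. Of 8 partners of Sprouty, all passed and 2 were at least 2-fold lower at both times. These were the kinase gene Dyrk1a at -1.24 and -1.92 and the ubiquitin ligase gene Siah2 at -1.42 and -1.72. The shares over all genes were 5.69% at 2 h and 14.4% at 4 h. Siah2, with signals of 477, 178 and 145, had a signal of 200 or more at 0 h only. It passed the filter through that array, so a fall was built into its entry among the 2. Mknk1 was at -0.71 at 4 h, Cbl at -0.22, Tesk1 at 0.08 and Cav1 at 0.33. The 4 h sign of Cbl and Tesk1 depended on the scaling, with 0.09 and 0.38 under equal medians and -0.54 and -0.24 under spike-in scaling.

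Among the other ETS factors, 12 of 14 passed, and 4 of the 12 had fallen 2-fold or more by 2 h (5.69% of all genes) and 4 by 4 h (14.4%), with medians of -0.45 and -0.58. The lowest at 4 h was Erf, an ETS repressor that ERK exports from the nucleus, with signals of 1746, 722 and 282 and ratios of -1.27 and -2.63. Elf2 was at -1.49 ± 0.10 and -2.05 ± 0.39, and Etv6 at -1.29 ± 0.80 and -1.62 ± 0.54 (SD over 2 probe sets each). Gabpa, Elf1 and Elf4 were the highest at 4 h, at 0.34, 0.21 and -0.06. Elf1 and Elf4 were at 0.51 and 0.24 at 4 h under equal medians, but at -0.12 and -0.38 under spike-in scaling.

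Genes that ERK is known to induce outside the feedback set were mostly below their 0 h signal, 9 of the 12 passing genes at both times (8 with equal medians, 7 with quantile normalization and 9 with spike-in scaling). Of 17 listed, 16 had a named probe set and 12 passed, and 6 of the 12 had fallen 2-fold or more by 2 h (5.69% of all genes) and 6 by 4 h (14.4%), with medians of -0.91 and -1.07. Ier3, Myc and Ier2 were lowest at 4 h, at -4.49, -3.66 and -2.57, on 1 probe set each. Signals at 0, 2 and 4 h were 3095, 388 and 138 for Ier3 and 1613, 109 and 128 for Myc. Ier3 at 4 h and Myc at 2 h and 4 h lay close to the floor of 100. A deeper fall could hardly have been seen there. Myc and Junb (478, 165 and 193) had a signal of 200 or more at 0 h only. They passed the filter through that array, so a fall was built into their entry among the 6. The filter is a mean over all 3 arrays, so a high 0 h signal also counted towards the entry of genes with dim later signals. Among these were Ier2 (1266, 168 and 214), Ksr1 and Dusp6. The 3 passing genes not among the 9 lay above their 0 h signal on both later arrays. Ccnd1, the gene of cyclin D1, had signals of 7988, 10987 and 10225 and stood at 0.46 ± 0.12 and 0.36 ± 0.21 (SD, 3 probe sets), with 4 h values of 0.03 under spike-in scaling and -0.0043 under quantile normalization. Hbegf, an EGF receptor ligand, was at 0.22 ± 0.09 and 0.21 ± 0.07 (SD, 2 probe sets), but at -0.11 at 4 h under spike-in scaling. The receptor gene Epha2 was at 0.39 and 0.68. No gene of this list was 2-fold higher at either time.

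**Figure D5:**
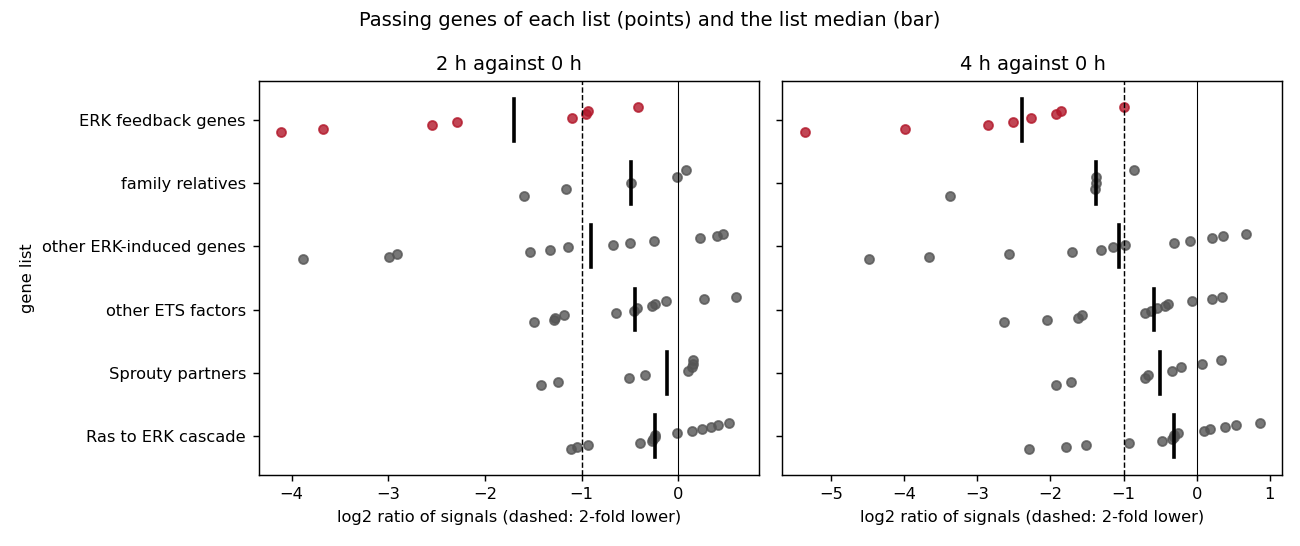
Log2 ratios of signals of each passing gene (points) and the median (bar) for 6 gene lists, at 2 h against 0 h (left) and 4 h against 0 h (right), with a dashed line at 2-fold lower. The feedback genes have medians of -1.70 and -2.38, and the Ras to ERK cascade of -0.24 and -0.31.

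The genes most like Dusp6 were taken as those with the smallest Euclidean distance between pairs of log2 ratios (2 h and 4 h against 0 h), over 3 arrays that share the 0 h array. They were Ccn1 at a distance of 0.62, Id3 at 0.78, Ier3 at 1.41, Slc38a2 at 1.65 and Prickle1 at 1.65. Ccn1 encodes a matricellular protein, and Id3 blocks DNA binding by basic helix-loop-helix factors. Those nearest to the median pair of the 8 genes were closer, namely Tmcc3 at 0.05, Fzd7 at 0.12, Pnrc2 at 0.13, Id1 at 0.15 and Fancf at 0.16. These distances were smaller than the SD between probe sets at 2 h and 4 h, 0.67 and 0.81 for Tmcc3 and 0.52 and 1.36 for Fancf. Fzd7, Pnrc2 and Id1 had 1 passing probe set each. Fzd7, a Wnt receptor gene, had signals of 1491, 423 and 288, and Id1, a relative of Id3, 1939, 662 and 382.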

How the data were processed

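Gene expression was measured in 1 culture per time point. The authors deposited linear-scale intensities, 1 per probe set, and GCOS 1.4 is named in the submitters' processing notes. The arrays were Mouse430_2 per the file headers, and how GCOS computed the signal was not given in the sources. The 2% trimmed mean over all 45101 probe sets was 150.0 on each array. The platform annotation gave 1 gene symbol for 34958 probe sets, several for 932, and did not list 9211. Of those with 1 symbol, 34945 are no controls, and 34741 of these symbols were updated by gene ID to RefSeq (GRCm38.p6).

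These values were multiplied per array to bring the trimmed mean to 500, raised to a floor of 100 where lower, and turned into log2. Probe sets with a mean log2 signal at or above that of 200 passed (15785 probe sets, 9723 genes), and a gene took its brightest passing probe set. Median signals over all probe sets were 154, 136 and 126 at 0, 2 and 4 h. With 1 array per time point no p-value or standard error was computed, and genes were counted past 2-fold (log2 ratio of 1). Members and lists were chosen with earlier results of these data known. The named genes were all 10 members, up to 3 lowest and 3 highest passing genes per list at 4 h, and the 5 nearest in likeness to Dusp6 and to the median, leaving out predicted and clone names. The counting was tested on simulated data, with ratios planted only in genes brighter than every passing feedback gene. That test therefore does not cover the signal range of these genes. Alternatives covered scaling, the floor (50, 200 or an offset of 50), the filter (none or 400) and the choice of probe set. Software was Python 3.11.15 with matplotlib 3.10.9, scipy 1.17.1, pandas 2.3.3 and numpy 2.4.6.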

Additional observations from a re-analysis of the deposited data

How the results depend on the processing

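No paired analysis was possible because each time point is 1 array with no replicate. Over 11 alternatives, the number of feedback genes at least 2-fold lower was 4 to 7 at 2 h (5 in the setting reported), 6 to 8 at 4 h (7) and 2 to 4 for 4 h against 2 h (3). No feedback gene past 2-fold changed sign. The number of all genes at least 2-fold lower was 553 at 2 h, but 368 with equal medians, 917 with spike-in scaling, 1027 with no filter and 239 with a filter of 400. At 4 h it was 1396, but 872, 2206 and 780 with equal medians, spike-in scaling and a filter of 400. For 4 h against 2 h it was 526, but 327 with a floor of 200 and 253 with a filter of 400; fewer genes are tested with a stricter filter, and the cause of the other shifts was not tested. Dusp6 depended on the floor, with log2 ratios of -4.43 (4 h against 0 h) and -0.32 (4 h against 2 h) at a floor of 200, since its 4 h signal is then set to the floor, and of -4.81 and -0.95 with an offset of 50. Spred1 depended on the probe set, with -1.83 at 4 h and -1.07 for 4 h against 2 h as a mean over probe sets and -1.58 at 2 h without suffixed probe sets. Spry2 could not be read with a filter of 400. Without a filter, Etv4 was the 1 member at least 2-fold higher at 2 h, on a probe set with a signal of 73.3 at 0 h. The other lists' counts of genes at least 2-fold lower also moved. With a filter of 400 the relatives had 0 at 2 h and 1 at 4 h, the cascade 1 and 1, the Sprouty partners 0 and 0, and the other ERK-induced genes 1 and 1. Over all genes the shares were then 3.47% at 2 h and 11.3% at 4 h. Genes of a list that fail this filter are no longer counted, so a lower count does not mean a smaller fall. Without suffixed probe sets, which also leaves out some genes, the relatives had 0 at 2 h and 2 at 4 h, and the cascade 1 at 2 h. Over all genes the shares were then 6.17% at 2 h and 15.2% at 4 h. With equal medians, quantile normalization or an offset of 50 the cascade had 0 at 2 h, and with equal medians 1 cascade gene was at least 2-fold higher at 4 h.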

Other observations

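Of the 28 probe sets of these genes, 15 lay under the filter and were not counted above. Some of them followed the brighter probe set of the same gene. For Spred2, 1 dim probe set had signals of 227, 91.6 and 47.7 at 0, 2 and 4 h, at least 2.27-fold lower at both later times with the floor as the bound, and another had 259, 186 and 141. For Spred1, 1 dim probe set had 236, 220.2 and 85.3, and another had 249.0, 121 and 175, lowest at 2 h. The dim probe set of Spry2 had 31.6, 113 and 121, unlike the course of its brighter one. Etv4 had a highest signal of 237 at 2 h on 1 probe set and a lowest signal of 35.6 at 2 h on the other, so they disagree at that time.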
